A study of Homo sapiens with 14 samples.

Results

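The genes described here are 10 parts of the machinery that silences transposable elements through KAP1 and the HUSH complex: TRIM28, SETDB1, ATF7IP, MPHOSPH8, PPHLN1, MORC2, CBX1, CBX3, CBX5 and RBBP4. They were taken by name, among the 63677 gene IDs of each bulk count table, and all 10 held reads in all 12 bulk libraries and UMIs (unique molecular identifiers, one per captured RNA molecule) in the gastruloid nuclei. The study asked how primate-restricted transposable elements act as regulatory sequences while human embryonic stem cells (hESC) differentiate, and it repressed LTR5, the promoter-bearing repeats of the HERVK retrovirus, with CRISPR interference. Bulk RNA-seq came from the H9 line: 2 libraries of hESC, 3 of endoderm without sgRNA (DE_ctl), 3 of endoderm with the LTR5 sgRNA (DE_CRISPRi), 2 of foregut without it (FG_ctl) and 2 of foregut with it (FG_CRISPRi). Single-nucleus RNA-seq and ATAC-seq came from 1 preparation of H9 gastruloids, which are aggregates that elongate in culture, formed from 800 cells per well with 3 μM of the GSK-3 inhibitor CHIR-99021 and harvested at 72 h. No replicate exists for the nuclei.

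Endoderm took 3 days in Activin A at 100 ng/ml, with CHIR-99021 at 5 μM on the first day and 0.5 μM on the second, and foregut took 3 further days of a pancreatic protocol. Both endoderm groups carried dCAS9-KRAB, a nuclease-dead Cas9 fused to a KRAB domain, delivered by lentivirus and selected with puromycin before differentiation, whereas the hESC libraries are labelled hESC only. Stage and dCAS9-KRAB therefore cannot be told apart in the comparison of endoderm with hESC. For foregut the titles name the groups, but the status field calls the FG_ctl libraries hESC and the FG_CRISPRi libraries endoderm without sgRNA, and the titles were followed here. The foregut libraries were submitted later than the others, so stage and submission cannot be told apart either. Nothing in the labels says whether the libraries of a group came from separate cultures, and p-values then measure only the spread between these libraries, which may be technical.

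KRAB zinc finger proteins bind sequences within transposable elements and bring in KAP1, the product of TRIM28, which is the scaffold of the pathway. KAP1 in turn recruits SETDB1, which methylates lysine 9 of histone H3, and ATF7IP keeps SETDB1 stable and in the nucleus. The methylated histone is read by the HP1 proteins (CBX1, CBX3 and CBX5) and by MPP8, the product of MPHOSPH8, which together with periphilin (PPHLN1) and TASOR forms the HUSH complex. HUSH acts on young retroelements with MORC2, an ATPase that compacts chromatin. RBBP4 is a histone-binding WD40 protein shared by several complexes, among them NuRD, PRC2 and the replication-coupled chaperone CAF-1. The machinery is active in hESC, where it limits endogenous retroviruses, and the KRAB domain of dCAS9-KRAB works through the same KAP1.

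The bulk libraries held 11583063 to 37152434 gene reads each, and mitochondrial genes took 8.30 to 34.7% of them. This share moved with stage, at 16.9 and 25.5% in hESC, 8.30 to 14.4% in DE_ctl and 17.6 and 29.0% in FG_ctl, and fewer genes held reads in FG_ctl (17357 and 17926) than in hESC (20270 and 20973) or DE_ctl (20250 to 20840). Leaving the mitochondrial genes out of the fits changed no call of the 10 genes. The lowest correlation of log2 counts between libraries of a group was 0.931, in FG_CRISPRi, against 0.990 in hESC. The summed level of 16 cell cycle genes was 4060 to 4120 CPM (reads of a gene per 1e+06 gene reads, scaled with TMM over the 12 libraries) in hESC, 1567 to 2140 in DE_ctl and 798 to 868 in FG_ctl. The labels were checked with marker lists. Endoderm genes summed to 22.9 to 36.0 CPM in hESC and 5465 to 5999 in DE_ctl, and foregut genes to 110.5 to 133 CPM in DE_ctl and 2623 to 3039 in FG_ctl. With the sgRNA, endoderm genes summed to 6094 to 7057 CPM in DE_CRISPRi and foregut genes to 2231 to 2804.5 in FG_CRISPRi. Pluripotency genes summed to 3050 to 3909 CPM in hESC, 2091 to 2740 in DE_ctl and 767 to 1042 in FG_ctl, but the genes did not move together. In endoderm DNMT3B fell from 1174 ± 48.2 to 210.5 ± 38.8 CPM and SOX2 from 158 ± 7.03 to 23.2 ± 6.97, whereas POU5F1 rose from 433 ± 201 to 731 ± 88.1, and in FG_ctl LIN28A, at 689 ± 159 CPM, made up most of the sum. Fibroblast, endothelial and blood genes summed to 283 to 300.3 CPM in FG_ctl, mostly COL1A1, against 6.05 to 10.9 in hESC and 20.9 to 33.3 in DE_ctl, while PTPRC, the pan-leukocyte marker, was below the filter for testing. HBE1, a blood gene of the same list, had 13.0 and 17.2 CPM in FG_ctl, 0 in hESC and at most 0.0625 in DE_ctl. Primitive streak and mesoderm genes moved with endoderm, at 743 to 1231 CPM in DE_ctl against 3.13 to 4.37 in hESC, 8 of 8 tested being higher. Their part in the differences between hESC and endoderm of the 10 genes was not tested. In bulk samples fewer cells of a type and less RNA per cell cannot be told apart.

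Levels of different genes were compared only per kilobase of exon. On that scale TRIM28 stood above the other 9 in every group, with 273 ± 4.99 CPM per kb in hESC (SD, n = 2). CBX3 followed with 63.5 ± 0.36 CPM per kb and CBX1 with 60.3 ± 14.6, a pair that did not differ beyond its spread. CBX5 came next with 31.9 ± 0.09 and RBBP4 with 20.9 ± 3.33 CPM per kb. The remaining genes were all low: MORC2 had 6.26 ± 0.97 and SETDB1 5.80 ± 0.06 CPM per kb, which did not differ beyond their spread, and ATF7IP had 4.03 ± 0.34. PPHLN1 with 3.73 ± 0.21 and MPHOSPH8 with 3.06 ± 1.27 CPM per kb, both HUSH subunits, were the lowest, and their spreads overlapped with each other and with ATF7IP. This order depends on the length used, all annotated exons merged, which can exceed that of the transcripts present. It was 12155 bases for PPHLN1 and 4909 for MPHOSPH8. Before scaling by length, PPHLN1 had 45.3 CPM in hESC and SETDB1 42.8. The proportions and shares below use the same lengths. In DE_ctl the order at the top changed: CBX1 had 71.9 ± 4.22 CPM per kb, CBX3 35.7 ± 1.67 and RBBP4 31.7 ± 2.86, and CBX5 dropped below RBBP4 with 17.1 ± 3.09.

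**Figure D1:**
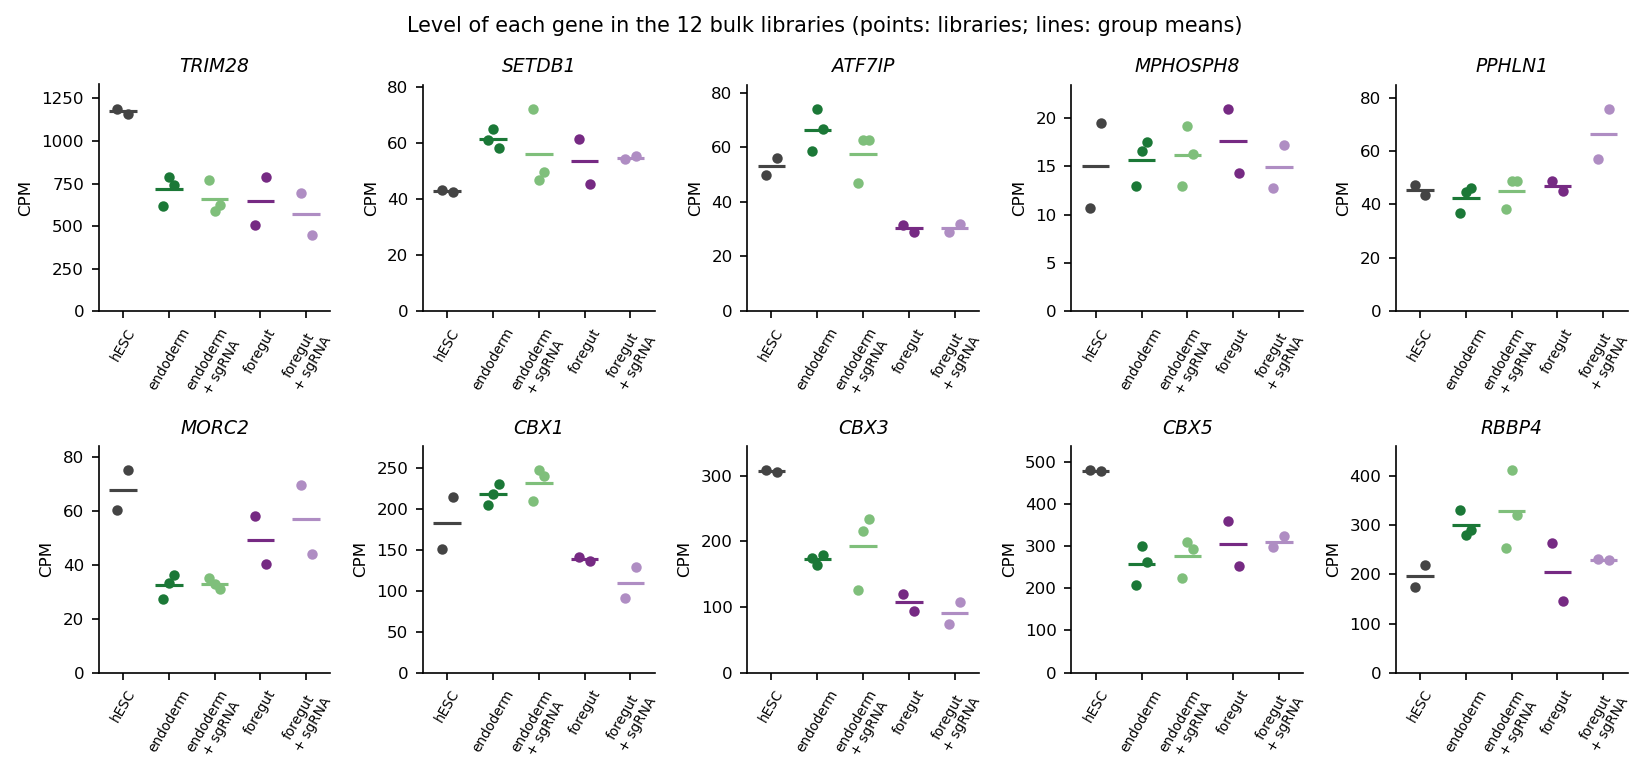
Level of each of the 10 genes in the 12 bulk libraries, in CPM on a log axis, with 1 point per library, grouped as hESC, DE_ctl, DE_CRISPRi, FG_ctl and FG_CRISPRi, and a bar at each group mean. TRIM28 sits at 1159 CPM or more in hESC and at 791 or less in every other library, whereas the PPHLN1 points of hESC and DE_ctl overlap.

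Between hESC and DE_ctl, 6 of the 10 genes changed. TRIM28, MORC2, CBX3 and CBX5 were lower in endoderm, and SETDB1 and RBBP4 were higher (edgeR's quasi-likelihood test with Benjamini–Hochberg adjustment over 20818 genes, adjusted p under 0.05). Of all genes tested 37.9% passed in this comparison, 19.6% higher and 18.3% lower, and 50.5% of the genes over 10 CPM passed, so 6 of 10 is near the share of genes of such a level. The groups did not overlap for 7 of the 10, against 60.3% of all genes. The median log2 change of the 10 genes was 0.017, beside 0.045 over all genes tested.

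TRIM28 (ENSG00000130726, GRCh37 chr19:59055431-59062089, plus strand) had 1189.5 and 1159 CPM in the hESC libraries, and 619, 791 and 739 CPM in DE_ctl. Both hESC libraries were above all others of the series. The level was lower in endoderm (log2 change −0.68, SE 0.17, 95% interval −1.05 to −0.31, adjusted p = 0.00562). The call was lost without hESC replicate 1 (adjusted p = 0.0558). TRIM28 still had the most transcript per kilobase of the 10 genes in DE_ctl, 166 ± 20.5 CPM per kb (SD, n = 3).

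SETDB1 (ENSG00000143379, GRCh37 chr1:150898739-150937220, plus strand) moved the other way. It had 43.1 and 42.4 CPM in hESC, and 60.9, 65.0 and 58.1 CPM in DE_ctl, so that every endoderm library was above both hESC libraries. The rise was 1.47-fold (log2 change 0.55, SE 0.18, 95% interval 0.16 to 0.95, adjusted p = 0.0263). It did not hold when 1 of several libraries was left out: adjusted p was 0.104 without hESC replicate 1, 0.112 without hESC replicate 2, 0.112 without DE_ctl replicate 2 and 0.0789 without DE_ctl replicate 3. SETDB1 overlaps CERS2 on the opposite strand, which held 2693 to 11639 reads per library, and the strand setting of the counting is not given in the sources used here. ATF7IP (ENSG00000171681, GRCh37 chr12:14518610-14655865, plus strand) had 49.8 and 56.1 CPM in hESC, and 58.7, 74.0 and 66.6 CPM in DE_ctl. All endoderm values were above those of hESC, but the difference did not pass (log2 change 0.36, 95% interval −0.04 to 0.77, adjusted p = 0.152). It passed without DE_ctl replicate 1 (adjusted p = 0.0197).

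Because the scaffold and its methyltransferase differed in opposite directions, their proportion was taken within each library, where library scaling cancels. TRIM28 transcript per kilobase was 47.0 ± 0.37 times that of SETDB1 in hESC (SD, n = 2) and 20.01 ± 2.30 times in DE_ctl (n = 3). In the other groups the mean proportion was 20.5 in DE_CRISPRi, 21.9 in FG_ctl and 17.9 in FG_CRISPRi. The FG_ctl mean joined libraries at 14.1 and 29.7, an SD of 10.98, and all 10 libraries of differentiated cells were below both of hESC. The proportion was chosen for the opposite changes of its genes in these same libraries. Its separation of hESC from DE_ctl follows from them and adds no support. ATF7IP stood at 0.695 ± 0.0651 of SETDB1 per kilobase in hESC and 0.608 ± 0.0581 in DE_ctl, which overlapped within about 1 SD of each, and at 0.324 ± 0.0504 in FG_ctl.

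**Figure D2:**
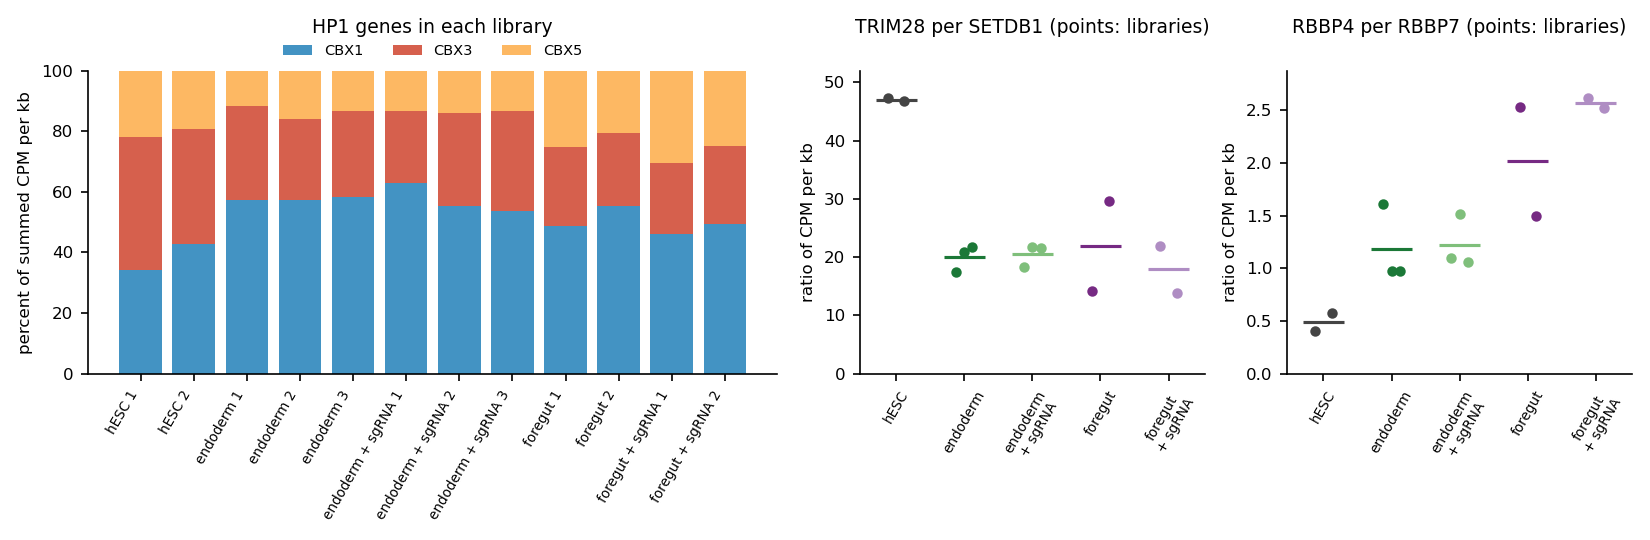
Proportions of transcripts per kilobase within each bulk library, with 1 point per library and a bar at each group mean; axes give the ratio or the percent of the 3 HP1 genes. The TRIM28 to SETDB1 ratio is 46.8 and 47.3 in the hESC libraries and 29.7 or less in the others, and the RBBP4 to RBBP7 ratio is 0.409 and 0.572 in hESC and 0.971 or more in the others.

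Of the HUSH side, MORC2 changed and the HUSH subunits did not pass. MORC2 (ENSG00000133422, GRCh37 chr22:31321117-31364760, minus strand) had 60.3 and 75.1 CPM in hESC, and 27.5, 33.2 and 36.3 CPM in DE_ctl. The lowest hESC value was well above the highest endoderm value. The 2.04-fold fall was the only change over 2-fold among the 10 genes in this comparison (log2 change −1.03, SE 0.20, 95% interval −1.45 to −0.61, adjusted p = 0.000703), and 26.0% of all genes passed with that fold. MPHOSPH8 (ENSG00000196199, GRCh37 chr13:20207799-20247581, plus strand) had 10.6 and 19.5 CPM in hESC, and 12.9, 16.6 and 17.5 in DE_ctl. The hESC libraries lay on either side of all endoderm libraries, and the interval of the difference was −0.47 to 0.66 on the log2 scale. PPHLN1 (ENSG00000134283, GRCh37 chr12:42632249-42853517, plus strand) had 47.1 and 43.6 CPM in hESC, and 36.7, 44.9 and 46.1 in DE_ctl, which overlap, with an interval of −0.47 to 0.35. A fall of the size seen for MORC2 lies outside both intervals. PPHLN1 overlaps ZCRB1 and PRICKLE1 on the opposite strand, so its counts share the uncertainty given for SETDB1. TASOR, the third HUSH subunit, had 32.6 ± 0.35 CPM in hESC and 35.3 ± 13.7 in DE_ctl (adjusted p = 0.683). Its paralog TASOR2 fell from 49.0 ± 10.9 to 25.1 ± 2.90 CPM (log2 change −0.94, SE 0.20, adjusted p = 0.00187).

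The HP1 genes encode proteins with a chromodomain, which binds the methylated lysine, and a chromoshadow domain, which pairs them and binds KAP1. Levels of CBX5 (HP1 alpha) and CBX3 (HP1 gamma) fell in endoderm, and that of CBX1 (HP1 beta) did not pass. CBX5 (ENSG00000094916, GRCh37 chr12:54624726-54673917, minus strand) had 479.96 and 478 CPM in hESC, and 209, 301 and 264 CPM in DE_ctl. Its log2 change was −0.86 (SE 0.19, 95% interval −1.26 to −0.46, adjusted p = 0.00176), a 1.82-fold fall. CBX3 (ENSG00000122565, GRCh37 chr7:26240782-26253227, plus strand) had 309 and 306 CPM in hESC, and 175, 164 and 179 CPM in DE_ctl. The replicates were tight in both groups, and the fall was 1.74-fold (log2 change −0.80, SE 0.17, 95% interval −1.16 to −0.43, adjusted p = 0.00157). CBX3 overlaps HNRNPA2B1 on the opposite strand, which held 12610 to 39516 reads per library, and reads that only the strand can assign are uncertain. CBX1 (ENSG00000108468, GRCh37 chr17:46147414-46178840, minus strand) had 152 and 215 CPM in hESC, and 206, 219 and 232 CPM in DE_ctl. The higher hESC library lay within the endoderm values, and the interval of the difference was −0.12 to 0.70 (adjusted p = 0.256).

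The makeup of the HP1 transcripts moved with these levels. Per kilobase and within a library, CBX1 made up 38.5 ± 5.90% of the 3 HP1 genes in hESC (SD, n = 2) and 57.6 ± 0.55% in DE_ctl (n = 3). CBX3 took 41.0 ± 3.97% in hESC and 28.7 ± 1.96% in DE_ctl, and CBX5 took 20.6 ± 1.93% and 13.7 ± 2.08%. The share of CBX1 was higher in all 3 endoderm libraries, at 57.2 to 58.2%, than in the hESC libraries, at 34.3 and 42.6%. In FG_ctl CBX1 made up 52.1 ± 4.70%, CBX3 25.1 ± 1.57% and CBX5 22.9 ± 3.14% of the HP1 transcripts (n = 2).

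RBBP4 (ENSG00000162521, GRCh37 chr1:33116743-33151812, plus strand) rose in endoderm. It had 175 and 220.0 CPM in hESC, and 331, 280.3 and 289.7 CPM in DE_ctl, with no overlap. The rise was 1.56-fold (log2 change 0.64, SE 0.19, 95% interval 0.24 to 1.03, adjusted p = 0.0127), and it was lost without hESC replicate 1 (adjusted p = 0.152) and with 1 fit over all 12 libraries (adjusted p = 0.125). Its paralog RBBP7, which sits in several of the same complexes, fell from 315 ± 24.2 to 205 ± 39.5 CPM (log2 change −0.59, adjusted p = 0.0268). RBBP4 per kilobase was 0.491 ± 0.115 of RBBP7 in hESC (SD, n = 2), 1.18 ± 0.369 in DE_ctl (n = 3) and 2.01 ± 0.73 in FG_ctl (n = 2), with no overlap between hESC and the other libraries. Since RBBP4 rose and RBBP7 fell in these same libraries, the gap between hESC and DE_ctl follows from those changes.

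**Figure D3:**
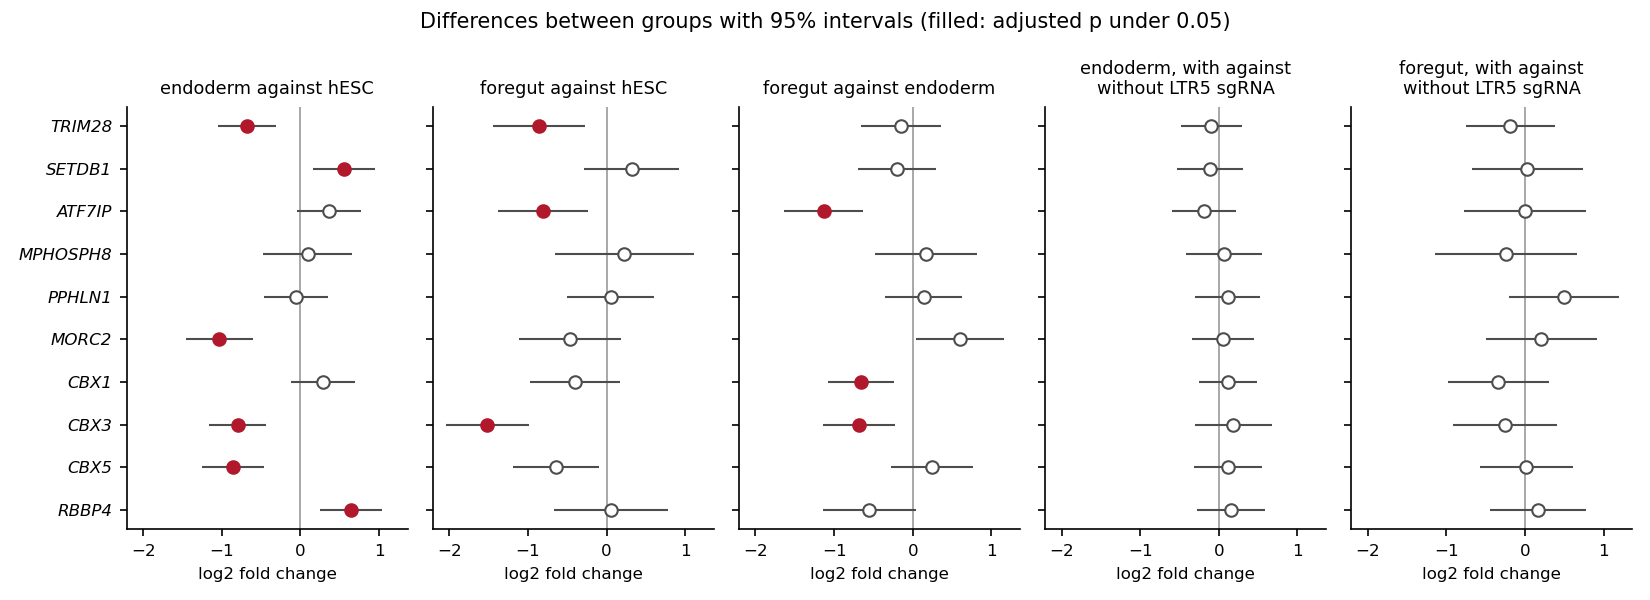
Log2 change of each of the 10 genes in the 5 comparisons, with 95% intervals of edgeR's quasi-likelihood fit as bars and filled points where the adjusted p was under 0.05. Filled points are seen in the comparisons between stages, 6, 3 and 3 of 10, and none in the comparisons with and without the LTR5 sgRNA.

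For the genes that changed in endoderm and have an entry in the RefSeq promoter table (GRCh38.p14), 250 bases before and 50 after the transcription start are given here, since the open promoters in the gastruloid nuclei were measured on that build. TRIM28 is among the genes not printed. Capitals mark matches, on either strand, to 4 motifs: CCAAT, the NF-Y box; CCGGAA, the core bound by ETS factors; TTTGGCGC, an E2F site; and GCGC, any base and TGCGC in a row, the NRF1 motif. For genes with several entries, the start with most CpG is given. They are SETDB1 at chr1:150926113-150926412 (plus strand), MORC2 at chr22:30968725-30969024 (minus), CBX3 at chr7:26201193-26201492 (plus), CBX5 at chr12:54280073-54280372 (minus) and RBBP4 at chr1:32650958-32651257 (plus).
SETDB1: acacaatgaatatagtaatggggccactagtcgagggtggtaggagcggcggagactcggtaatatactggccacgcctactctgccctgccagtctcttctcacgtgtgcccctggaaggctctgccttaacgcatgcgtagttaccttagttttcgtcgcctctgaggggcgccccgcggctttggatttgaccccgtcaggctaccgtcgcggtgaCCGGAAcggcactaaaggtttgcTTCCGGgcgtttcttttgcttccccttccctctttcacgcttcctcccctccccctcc
MORC2: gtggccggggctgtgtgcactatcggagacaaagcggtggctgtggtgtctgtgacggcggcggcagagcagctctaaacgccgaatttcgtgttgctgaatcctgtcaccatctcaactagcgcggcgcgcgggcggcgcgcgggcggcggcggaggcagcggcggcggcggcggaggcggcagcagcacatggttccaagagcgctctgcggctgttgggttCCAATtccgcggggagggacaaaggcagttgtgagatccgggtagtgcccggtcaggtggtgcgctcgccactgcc
CBX3: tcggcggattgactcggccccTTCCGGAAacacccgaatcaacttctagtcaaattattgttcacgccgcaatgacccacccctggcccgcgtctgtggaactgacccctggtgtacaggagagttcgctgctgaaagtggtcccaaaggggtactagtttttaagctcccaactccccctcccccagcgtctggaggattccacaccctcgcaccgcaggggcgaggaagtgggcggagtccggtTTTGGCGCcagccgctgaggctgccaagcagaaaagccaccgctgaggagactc
CBX5: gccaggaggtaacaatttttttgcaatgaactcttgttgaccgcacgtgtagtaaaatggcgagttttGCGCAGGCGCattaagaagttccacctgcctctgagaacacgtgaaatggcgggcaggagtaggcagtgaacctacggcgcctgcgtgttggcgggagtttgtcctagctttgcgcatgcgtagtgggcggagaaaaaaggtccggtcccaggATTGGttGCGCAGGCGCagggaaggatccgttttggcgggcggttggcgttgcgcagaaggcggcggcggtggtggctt
RBBP4: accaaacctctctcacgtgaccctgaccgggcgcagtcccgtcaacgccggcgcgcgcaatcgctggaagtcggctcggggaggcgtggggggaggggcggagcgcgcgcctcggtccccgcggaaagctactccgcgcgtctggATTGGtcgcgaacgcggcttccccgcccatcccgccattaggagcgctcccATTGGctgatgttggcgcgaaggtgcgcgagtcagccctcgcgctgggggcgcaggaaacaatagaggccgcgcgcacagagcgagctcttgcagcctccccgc

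The windows hold 22 CpG for SETDB1, 35 for MORC2, 19 for CBX3, 25 for CBX5 and 42 for RBBP4. They were chosen for their CpG where a gene has several starts, and the other starts hold 15 for SETDB1, 31 for RBBP4 and 6 and 4 for CBX5. Of the 10 genes 9 had an entry, with 19 promoters in all, and 17 of these overlapped an ATAC peak of the gastruloid nuclei, against 58.4% of all promoters. The peaks, 205374 in number, were called by the authors over all nuclei together. CCAAT occurred in 12 of the 19 promoters and in 34.6% of the 35116 promoters of the table, with 2 matches in the RBBP4 window and 1 each in those of MORC2 and CBX5. Most of these 12 were starts of ATF7IP and CBX5. Windows of the same gene can overlap, so the 19 are not separate units. CCGGAA occurred in 3 of the 19 and in 17.2% of all. It appears in the SETDB1 window and in that of CBX3, where a single stretch reads as the motif on both strands, overlapping itself. TTTGGCGC was found in the CBX3 window alone and in 0.652% of all promoters, and the NRF1 motif in that of CBX5 alone and in 5.78% of all. TATAAA, also searched, was in 3 of the 19 and in 11.5% of all. CCAAT and CCGGAA each stood in windows of genes that rose and of genes that fell.

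Which other genes followed the same course over the 12 bulk libraries was read from correlations of log2 CPM among 8733 protein-coding genes, as a description, since libraries of a group and comparisons share their source. TRIM28 was most like MYO18A (r = 0.966), PTGES2 (0.965) and MED22 (0.956). SETDB1 was most like NCSTN (0.874), FBLN5 (0.851) and ARNT (0.835), which lies near it on chromosome 1. CBX5 was most like HNRNPD (0.965), PIK3R3 (0.948) and HNRNPAB (0.947), and RBBP4 like FGD6 (0.930), ANKRD12 (0.902) and MED13L (0.901). Among the 10 genes themselves, the highest correlations were those of ATF7IP with CBX1 (0.896), CBX5 with MORC2 (0.750) and ATF7IP with CBX3 (0.749).

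The LTR5 sgRNA brings dCAS9-KRAB to its targets, and the comparison asks whether the machinery recruited by KRAB itself stays at the same level. In endoderm none of the 10 genes passed with edgeR's quasi-likelihood test, and only 7 of 20407 genes (0.0343%) did. No gene of the 10 had an unadjusted p under 0.05, which 5.17% of all genes had, and DESeq2 and limma-voom called none of the 10 either. TRIM28 had 769, 589 and 622 CPM with the sgRNA, against 619, 791 and 739 without it, and its interval of the log2 difference was −0.48 to 0.29. Values with and without the sgRNA overlapped for all 10 genes, where 10.3% of all genes did not overlap. SETDB1 had 72.1, 46.6 and 49.6 CPM with the sgRNA, a spread wider than the 58.1 to 65.0 CPM of DE_ctl. The largest differences were those of ATF7IP, at 46.9, 62.4 and 62.7 CPM with the sgRNA (log2 difference −0.19, 95% interval −0.60 to 0.22), and CBX3, at 126, 217 and 234 CPM (0.18, 95% interval −0.31 to 0.67). For MORC2 the sgRNA libraries had 35.1, 33.0 and 30.9 CPM, and for MPHOSPH8 12.9, 19.1 and 16.3 CPM, both within or near the range without the sgRNA. PPHLN1 had 38.2, 48.7 and 48.7 CPM with the sgRNA and CBX1 210.1, 248 and 240.5 CPM. CBX5 had 223, 310.04 and 294 CPM and RBBP4 253, 412 and 322 CPM with it. In both of these the first sgRNA library was the lowest, as it was for CBX3. All 10 intervals lie between −0.60 and 0.67 on the log2 scale. These sizes rest in part on DE_CRISPRi replicate 1: without it, the difference was −0.05 for ATF7IP, 0.42 for CBX3 and −0.315 for SETDB1, and no gene of the 10 passed.

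In foregut none of the 10 genes passed between FG_ctl and FG_CRISPRi with the same edgeR test, where 33 of 20044 genes (0.165%) did. None of the 10 had an unadjusted p under 0.05, which 3.49% of all genes had, and DESeq2 and limma-voom called none. Of the marker genes PDX1, AFP and HBE1 were called lower with the sgRNA, and the other foregut markers tested did not pass. PDX1 had 25.8 ± 1.66 CPM in FG_ctl and 5.26 ± 3.49 in FG_CRISPRi. AFP had 4.82 and 187 CPM in FG_ctl and at most 0.0363 in FG_CRISPRi. Their part in the values of the 10 genes was not tested. Groups did not overlap for 2 of the 10, against 27.4% of all genes. PPHLN1 had 48.8 and 45.1 CPM without and 57.1 and 75.9 CPM with the sgRNA, so both libraries with it were higher (log2 difference 0.50, 95% interval −0.21 to 1.20, adjusted p = 1). CBX1 had 141 and 137 CPM without and 91.0 and 129.7 CPM with it, both lower (−0.34, 95% interval −0.98 to 0.30, adjusted p = 1). TRIM28 differed between libraries of one group more than between groups, with 507 and 787 CPM in FG_ctl and 693 and 449 CPM in FG_CRISPRi. ATF7IP was nearly the same in all 4 libraries, with 31.5 and 29.1 CPM without and 28.9 and 31.7 CPM with the sgRNA. SETDB1 had 61.4 and 45.5 CPM without and 54.1 and 55.3 CPM with it, and MPHOSPH8 20.9 and 14.3 against 12.7 and 17.2 CPM. For both genes the groups overlapped, and the interval of MPHOSPH8 was the widest downward, at −1.14 to 0.66 on the log2 scale. MORC2 had 58.0 and 40.2 CPM without and 69.5 and 44.1 CPM with the sgRNA, and CBX3 120.5 and 94.4 against 73.8 and 107 CPM. CBX5 had 359 and 253 against 298 and 323 CPM, and RBBP4 264 and 146 against 231 and 229 CPM. The FG_ctl libraries were further apart than those of FG_CRISPRi for SETDB1, CBX5 and RBBP4. The difference of the sgRNA effect between foregut and endoderm was tested as an interaction, and 0 of the 10 genes passed with edgeR's quasi-likelihood test, where 0.194% of 22708 genes did. None of the 10 had an unadjusted p under 0.05 there, which 8.23% of all genes had, and DESeq2 and limma-voom called none. Its largest sizes were −0.46 for CBX1 (adjusted p = 0.758), −0.44 for CBX3 and 0.38 for PPHLN1.

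Between endoderm and foregut, ATF7IP, CBX1 and CBX3 fell and no gene of the 10 rose (edgeR's quasi-likelihood test, adjusted p under 0.05). Of all 21466 genes tested 33.9% passed, 18.0% lower, and 46.2% of those over 10 CPM passed. ATF7IP had 31.5 and 29.1 CPM in FG_ctl, below the 58.7 to 74.0 CPM of DE_ctl, a 2.20-fold fall (log2 change −1.13, SE 0.22, 95% interval −1.63 to −0.64, adjusted p = 0.00395). FG_CRISPRi lay beside FG_ctl, with 28.9 and 31.7 CPM. The paralog ATF7IP2 rose over the same step, from 4.58 ± 1.17 to 21.7 ± 5.22 CPM (log2 change 2.24, SE 0.32, adjusted p = 0.000772), after falling from 12.6 ± 0.42 CPM between hESC and endoderm (−1.42, adjusted p = 0.00053). CBX1 fell to 141 and 137 CPM (log2 change −0.65, SE 0.18, adjusted p = 0.0237) and CBX3 to 120.5 and 94.4 CPM (−0.69, SE 0.20, adjusted p = 0.0279), each below all 3 endoderm libraries.

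Another pair of genes did not overlap without passing. MORC2 had 58.0 and 40.2 CPM in FG_ctl, above all of DE_ctl (log2 change 0.60, 95% interval 0.04 to 1.16, adjusted p = 0.0925). RBBP4 had 264 and 146 CPM, below all of DE_ctl (−0.55, 95% interval −1.14 to 0.04, adjusted p = 0.134). In all, 5 of the 10 genes did not overlap, against 59.0% of all genes. The other 5 overlapped, with log2 changes of −0.15 for TRIM28, −0.20 for SETDB1, 0.17 for MPHOSPH8, 0.14 for PPHLN1 and 0.25 for CBX5. The call for CBX3 was lost without DE_ctl replicate 1, 2 or 3 or FG_ctl replicate 2, and that for CBX1 without DE_ctl replicate 2 or 3 or FG_ctl replicate 2, whereas ATF7IP passed under every alternative. MORC2 was called higher with DESeq2 (adjusted p = 0.0438), with edgeR after filterByExpr (0.0484) and without FG_ctl replicate 2 (0.0164), and RBBP4 without FG_ctl replicate 1 (log2 change −1.06). The fibroblast, endothelial and blood genes moved with this step, since 4 of the 4 tested were higher in FG_ctl, COL1A1 at 240 ± 8.56 and CDH5 at 30.8 ± 1.28 CPM, and 12 of the 16 cell cycle genes were lower. Their part in the values of the 10 genes was not tested.

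Against hESC, which served as control for endoderm too, FG_ctl had lower TRIM28, ATF7IP and CBX3 (edgeR's quasi-likelihood test over 21191 genes, of which 35.5% passed and 18.4% were lower). Of the genes over 10 CPM 52.2% passed. CBX3 changed most, 2.86-fold (log2 change −1.52, SE 0.23, 95% interval −2.05 to −0.99, adjusted p = 0.00195), and it passed with each library left out. TRIM28 was 1.82-fold lower (−0.86, SE 0.25, adjusted p = 0.0308), a call lost without hESC replicate 1 (adjusted p = 0.0647). ATF7IP was 1.75-fold lower (−0.81, SE 0.24, adjusted p = 0.0367), a call lost without hESC replicate 1 (0.176) or 2 (0.321). CBX5, with 359 and 253 CPM in FG_ctl, was below hESC in both libraries without passing (−0.65, adjusted p = 0.0679). CBX5 (adjusted p = 0.000858) and MORC2 (0.00707) passed without FG_ctl replicate 1, and SETDB1 was higher without FG_ctl replicate 2 (0.0376). Groups did not overlap for 7 of the 10 genes, against 69.5% of all. Among those that did not pass were SETDB1, higher in both FG_ctl libraries (0.32, adjusted p = 0.346), and MORC2 (−0.46, adjusted p = 0.23) and CBX1 (−0.40, adjusted p = 0.237), lower in both. MPHOSPH8 (0.23), PPHLN1 (0.05) and RBBP4 (0.05) overlapped with hESC. The 10 genes had a median log2 change of −0.431 in this comparison and −0.175 from endoderm to foregut, where all genes over 10 CPM had −0.245 and −0.225.

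Genes that work with these 10 were taken from lists. Between hESC and DE_ctl, where 37.9% of all genes and 50.5% of those over 10 CPM passed, 3 of 4 heterochromatin remodelers and anchors tested fell, HELLS, a helicase needed for DNA methylation of repeats, from 104 ± 5.12 to 26.1 ± 0.39 CPM (log2 change −1.96, adjusted p = 5.39e-07) and LBR, the lamin B receptor that binds HP1, from 146 ± 35.3 to 61.2 ± 3.93 (−1.22, adjusted p = 0.000131). Of 6 other H3K9 methyltransferases 3 fell and none rose, with SUV39H2 at 59.6 ± 4.71 CPM in hESC and 18.3 ± 4.24 in DE_ctl (−1.67, adjusted p = 2.08e-05). Of 7 H3K9 demethylase genes 3 rose and none fell, KDM4B from 17.0 ± 5.36 to 83.2 ± 15.7 CPM (2.33, adjusted p = 2.59e-06) and KDM3A from 30.5 ± 3.93 to 124 ± 15.9 CPM (adjusted p = 1.39e-06). Median log2 changes were −1.01 for the remodelers, −0.53 for the methyltransferases and 0.15 for the demethylases, beside 0.045 over all genes tested. KDM4B and KDM3A returned toward their hESC levels in FG_ctl, with 26.8 ± 3.20 and 40.2 ± 9.20 CPM, and of the 7 demethylases 5 fell from endoderm to foregut (median −0.783, beside −0.091 over all genes). In that comparison 33.9% of all genes passed, 18.0% lower, and 46.2% of those over 10 CPM passed.

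RBBP4's partners were counted by complex, and their shares read against the 37.9% of all genes, or 50.5% of those over 10 CPM, that passed in this comparison. Of 12 NuRD genes 4 rose in endoderm and 1 fell, with HDAC1 at 64.8 ± 6.68 CPM in hESC and 120 ± 1.55 in DE_ctl (adjusted p = 0.000869), and RBBP7 the one that fell. Of 9 PRC2 genes 1 rose and 4 fell, among them the methyltransferase EZH2, from 72.9 ± 9.37 to 26.3 ± 10.3 CPM (−1.43, adjusted p = 0.000666), while PHF1 rose from 17.6 ± 1.76 to 51.4 ± 7.32 CPM (1.58, adjusted p = 2.72e-05). Of 7 CAF-1 and H3.3 chaperone genes 4 fell and none rose. These counts are near the share over all genes. Medians were 0.26, −0.37 and −0.67 in that order. Of 7 paralogs of KAP1, MORC2, ATF7IP and SETDB1, MORC4 rose (0.87, adjusted p = 0.012) and ATF7IP2 and TRIM33 (−0.72, adjusted p = 0.0136) fell, with a median of −0.22. Of the SUMO pathway, which modifies KAP1 so that SETDB1 can bind, the protease gene SENP7 rose (1.39, adjusted p = 0.00724). None of the genes of these lists passed in either comparison with and without the LTR5 sgRNA. Beside them, 11 of 16 cell cycle genes fell and 1, TYMS, rose between hESC and DE_ctl, with a median of −1.12. The part of the cell cycle genes in these values was not tested.

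Integrants of the LTR5 and LTR6 families near the genes were looked up, because the study's sgRNAs target such elements. An LTR6B integrant of 556 bp lies 6678 bp before RBBP4 (GRCh37 chr1:33109510-33110065). It held 4 reads in hESC replicate 2 and 2 reads each in DE_CRISPRi replicates 2 and 3, 8 in all, and none in the other 9 libraries, so that it was at or near the floor of 3 reads that a count of 0 allows. It was tested only between hESC and DE_ctl (edgeR's quasi-likelihood test, adjusted p = 0.626, where 3.76% of integrants passed) and between hESC and FG_ctl (adjusted p = 0.562, 1.67%), and neither passed. The libraries with reads of the integrant had 220.0, 412 and 322 CPM of RBBP4, and the DE_ctl libraries without any had 280.3 to 331. In the paper this same integrant was repressed with its own sgRNAs, and RBBP4 was lower by RT-qPCR after endodermal differentiation. No such sgRNA is named for the libraries here, whose sgRNA targets LTR5. Reads of the integrant measure its own transcription and not enhancer activity, so its effect on RBBP4 was not tested here. PPHLN1 holds 3 LTR5B pieces within the gene and MPHOSPH8 has an LTR5_Hs integrant 32.5 kb away, all with 0 reads. The PPHLN1 piece at chr12:42723582-42724502 overlaps an annotated exon. The paper counted genes and elements together to avoid ambiguous reads, so reads over that piece may not have been assigned to it. No such integrant lies within 100 kb of the other 7 genes.

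In the gastruloid nuclei, 3422 of 3646 were kept, with a median of 16302 UMIs, and all 10 genes were detected. Values are CPM summed over the nuclei of a cluster, with exact Poisson 95% intervals that cover counting error only. They were not compared between genes, because nuclear UMIs were not scaled by length. Over all nuclei kept TRIM28 had 218 CPM, SETDB1 47.3, ATF7IP 173, MPHOSPH8 68.9, PPHLN1 116, MORC2 35.1, CBX1 96.5, CBX3 202, CBX5 231 and RBBP4 229. At 5000 UMIs per nucleus, to which 3197 nuclei were thinned, the share of nuclei with at least 1 UMI ran from 16.1 to 68.0% across the 10 genes, with a median of 47.1%. No cell type of these gastruloids is known to lack the genes, so no background share could be set beside these.

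Nuclei formed 9 clusters. Cluster 0 was axial mesoderm-like (505 nuclei), with CHRD 26.7-fold and NOTO, SHH and FOXJ1 also high. Cluster 2 was presomitic mesoderm-like (495 nuclei, with TBX6 and DLL3) and cluster 3 segmenting mesoderm-like (336, with PCDH8 and RIPPLY1). Cluster 5 was neuromesodermal-like by FGF17, SOX2 and NKX1-2 (418 nuclei). Of that marker list TBXT alone was lower there than in the other nuclei (0.84-fold, at 54.7 CPM), and WNT3A was only 1.30-fold. The others were left without a name: cluster 1 was led by EDNRA and EBF1 (578 nuclei), cluster 4 by CNTNAP2 and FST (537), cluster 6 by APOLD1 and mitotic genes such as PIF1 and KIF18A (110), cluster 7 by CCNB2 and PTTG1 (410, with a median of only 7918.5 UMIs), and cluster 8, with ADAMTS18 and FN1 among its leading genes, had 33 nuclei.

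Across these 9 clusters the levels of the 10 genes varied less than 2-fold, whereas a finer clustering into 19 gave ratios of 2.103 to 4.43. CBX3 ranged from 157 CPM in cluster 0 to 287 in cluster 7 (ratio 1.83, 95% interval 1.69 to 1.97). TRIM28 ranged from 177 CPM in cluster 0 to 281 in cluster 7 (1.59, 1.47 to 1.72), CBX1 from 66.4 to 113 in the same clusters (1.70, 1.502 to 1.92) and CBX5 from 163 in cluster 0 to 277 in cluster 6 (1.70, 1.56 to 1.86). TRIM28 and the HP1 genes thus all had their lowest level in the axial mesoderm-like nuclei. Cluster 0 was low for other genes too. RBBP4 had 185 CPM, PPHLN1 95.5 and MORC2 30.5 there, near their lowest values of 184, 90.2 and 29.2. For TRIM28, CBX1 and CBX5 the intervals of clusters 0 and 8 overlapped. For TRIM28 the interval of cluster 0, 169 to 185 CPM, also overlapped those of cluster 1 (184 to 202) and cluster 6 (173 to 206). The axial mesoderm-like nuclei also had the lowest sum of the 16 cell cycle genes, 1253 CPM against 1495 to 2789.5 elsewhere, and its part was not tested. ATF7IP ran from 123 CPM in cluster 7 to 217 in cluster 6 (1.77, 1.56 to 2.01), and SETDB1 from its lowest in cluster 7 to its highest in cluster 4 (1.66, 1.36 to 2.05). RBBP4 ran from 184 CPM in cluster 6 to 259 in cluster 7 (1.41, 1.26 to 1.58). For MPHOSPH8 (1.41, 1.06 to 1.84) and PPHLN1 (1.51, 1.17 to 1.97) the interval stayed above 1, and for MORC2 it did not (1.40, 0.911 to 2.24). Each of these intervals was taken for the pair of clusters with the most extreme values of 9, so that it is narrower than a fair account of the choice would give, and clusters 6 and 8 are small.

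**Figure D4:**
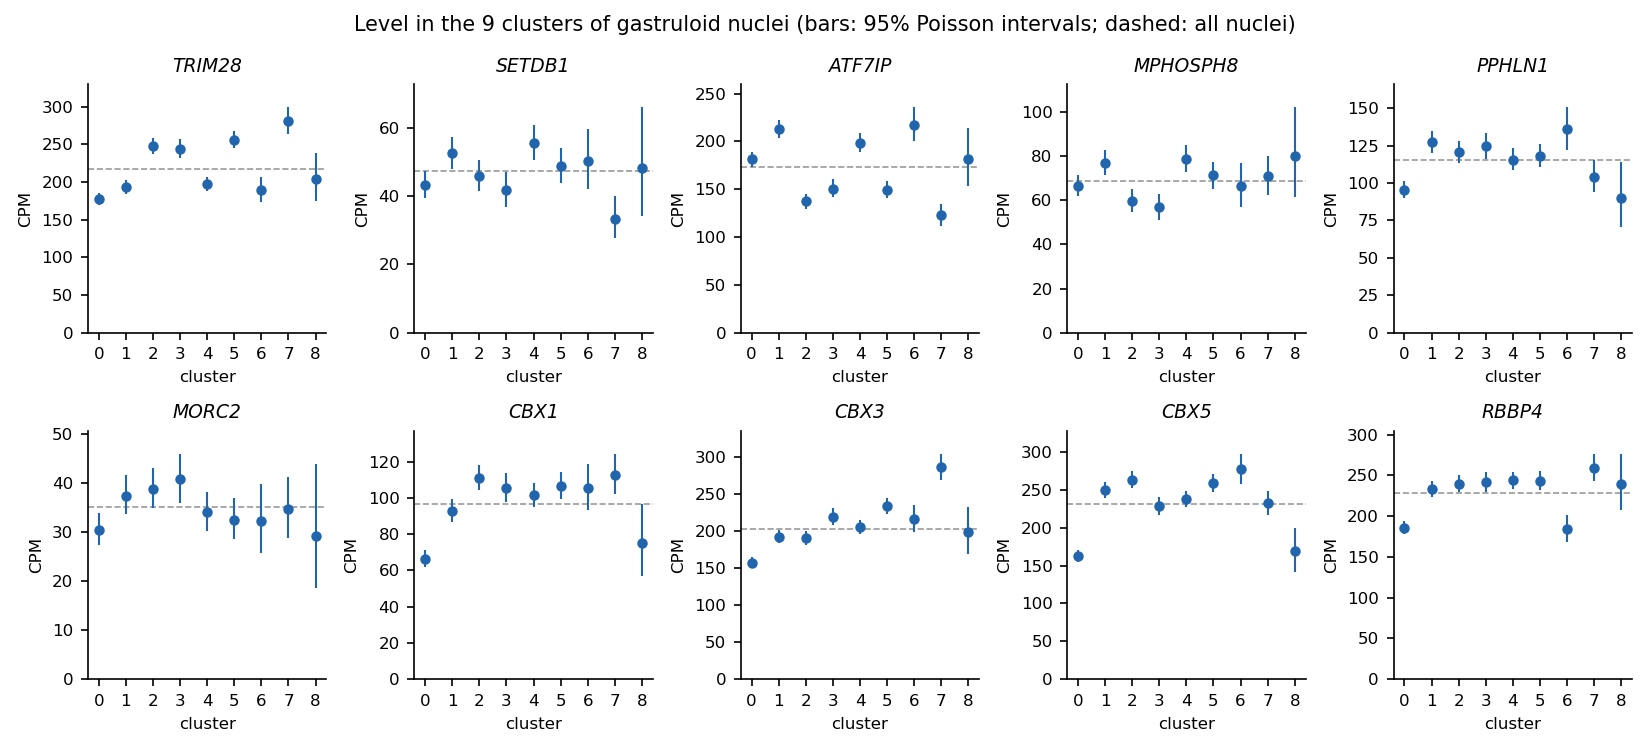
Level of each of the 10 genes in the 9 clusters of gastruloid nuclei, in CPM summed over the nuclei of a cluster, with exact Poisson 95% intervals as bars. Cluster 0, the axial mesoderm-like nuclei, has the lowest point for TRIM28, CBX1, CBX3 and CBX5, and the range of each gene stays under 2-fold at this resolution.

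Nuclei were also ordered by the cell cycle genes. In nuclei thinned to 5000 UMIs, 1268 held 0 to 7 UMIs of the 16 genes and 1013 held 12 to 35, which are ranges of a score and not cell types; 659 nuclei lay within 1 UMI of the lower limit and 602 of the upper one. Between these ranges TRIM28 rose from 188 to 262 CPM (ratio 1.40), CBX5 from 196 to 260.2 (1.33), CBX1 from 84.9 to 109 (1.29) and CBX3 from 182 to 232 (1.28), and RBBP4 from 225 to 254.5 CPM. PPHLN1, at a ratio of 1.03, and MORC2, at 0.974, were nearly level. SETDB1 (0.852), MPHOSPH8 (0.778) and ATF7IP, at 186 and 140 CPM (0.754), were lower in the nuclei with more cell cycle UMIs. ATF7IP ran against this in cluster 6, which had the highest cell cycle sum and the highest ATF7IP. The single preparation gives no test of these differences.

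**Figure D5:**
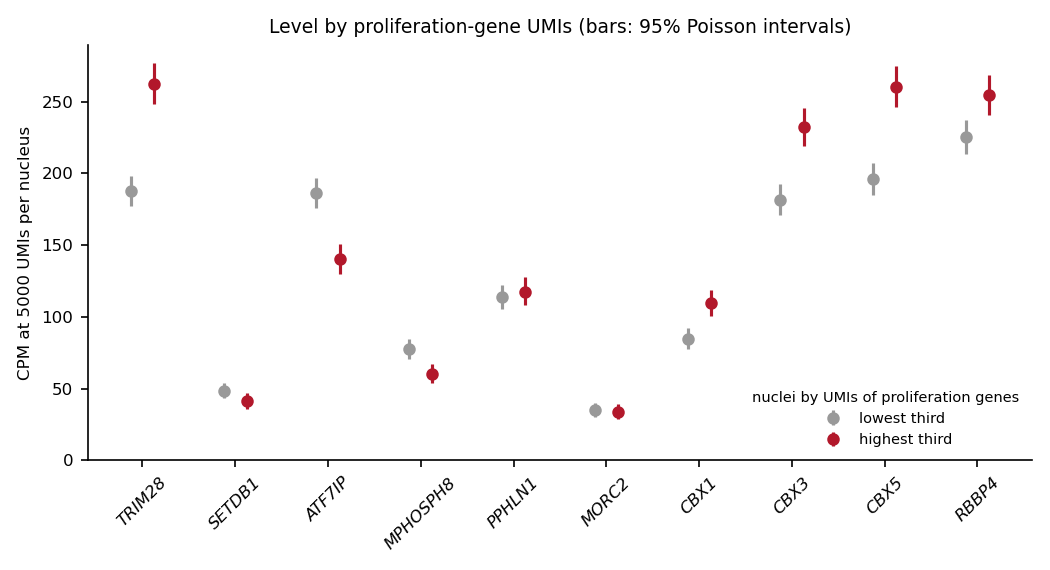
Level of each of the 10 genes in gastruloid nuclei grouped by the number of UMIs of 16 cell cycle genes at 5000 UMIs per nucleus, in CPM with exact Poisson 95% intervals. TRIM28, CBX1, CBX3 and CBX5 are higher in the range of 12 to 35 UMIs than in that of 0 to 7, and ATF7IP, MPHOSPH8 and SETDB1 are lower.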

How the data were processed

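Bulk RNA-seq of 12 libraries and single-nucleus RNA-seq and ATAC-seq of gastruloids (1 preparation) were used. The authors mapped the bulk reads to GRCh37 with HISAT2, counted those with a unique position over genes and transposable element integrants with featureCounts, and deposited raw counts. The library kit keeps the strand, and whether the counting used it is not given in the sources used here. For the nuclei, the authors ran Cell Ranger (cellranger-arc) on GRCh38 and deposited raw UMI counts per gene and nucleus and the start and end positions of peaks called over all nuclei. HISAT2, Cell Ranger and the builds hg19 and hg38 are also named in the submitters' processing notes. Gene reads per library, 11583063 to 37152434, set the precision, and intervals on UMI counts and floors of 3 reads cover counting error only. Of the 63677 gene IDs, 8012 were not found in the annotation and stayed in normalization and tests without a name.

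Counts were tested with edgeR 4.0.16 (TMM, quasi-likelihood test, 2-sided) in R 4.3.3, on the libraries of each comparison alone, for genes with at least 3 reads in 1 library. Calls required an adjusted p (Benjamini–Hochberg, over all genes tested) under 0.05, and all 10 genes passed the filter in each of the 6 comparisons. Levels per kilobase used the merged exon length of a gene. Alternatives were RLE size factors, DESeq2 1.42.0, limma 3.58.1 with voom, other filters, mitochondrial genes left out, a fold over 2 as well, 1 fit over all libraries, a replicate block and each library left out in turn. Where that left 1 library in a group, it was assumed to vary like the other groups. The count tests were also run on simulated data with known changes, and the outcome is not reported here. Integrant counts used the library sizes and factors of the genes.

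Nuclei needed 1000 UMIs, 200 genes and no more than 25% of UMIs from mitochondrial genes, and were clustered with scanpy 1.11.5, leidenalg 0.10.2 and igraph 0.11.9 at a resolution of 0.5, from 2000 variable genes and 30 components. Scrublet marked 70 nuclei (2.05%) as doublets, which stayed in, and no cell barcode occurred more than once. Other steps used python 3.11.15, numpy 2.4.6, pandas 2.3.3 and scipy 1.17.1, with matplotlib 3.10.9 for plots and the R package data.table (version 1.17.8) for reading files. Promoter sequences came from RefSeq (GRCh38.p14).

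The 10 genes and the lists of partners and markers were chosen with earlier results of these data known, and support no independent direction. All 10 genes were named, with the 3 protein-coding genes over 10 CPM most correlated with TRIM28, SETDB1, CBX5 and RBBP4 and, of each list of partners, at most the 2 largest rises and 2 largest falls past the test. TASOR was named beside that rule, after its values were seen. The listed genes LHX1, UHRF1, PECAM1 and PRDM3 were not analysed here, and the results of a few others are not reported here. Whether replicate numbers pair libraries across groups was checked from the correlation of their deviations. Foregut with and without the sgRNA gave −0.331, endoderm with and without it −0.113 to −0.044, endoderm against hESC 0.032 and 0.061, foregut against hESC −0.054, and foregut against endoderm 0.236 and 0.194. Only the last was above 0.1, over 2 pairs where 3 were asked for, so the numbers were taken as names only.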

Additional observations from a re-analysis of the deposited data

How the results depend on the processing

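The alternatives named above were applied to every value of the 10 genes. Of 890 such values, 850 kept their side of the threshold, 31 calls were lost and 9 gained. No called value changed sign, and 53 uncalled ones did, none with a size over 0.32 in the main result. With a fold over 2 asked for as well, the number of changed genes was 1 in endoderm against hESC (MORC2), 1 in foregut against endoderm (ATF7IP) and 1 in foregut against hESC (CBX3). With each library left out in turn it was 3 to 7, 1 to 4 and 1 to 5 in that order, and 0 to 0 for the LTR5 sgRNA in endoderm, in foregut and in their difference. Without hESC replicate 1 endoderm kept 3 calls. One fit over all 12 libraries also lost SETDB1 (adjusted p = 0.154) in endoderm and CBX3 (0.0525) from endoderm to foregut.

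With the replicate block, 1 gene passed in foregut against endoderm (CBX1 with adjusted p = 0.0933 and CBX3 with 0.0625 did not), 5 in endoderm against hESC, 4 in foregut against hESC, where CBX5 was added (0.0283), and 0 for the sgRNA. The libraries share only a number, although those of foregut and endoderm deviated together (0.236 and 0.194), and in foregut their deviations ran opposite (−0.331). A crossed pairing, added after seeing the data, called 0 of the 10 genes and 77 of all genes. Over all genes the sgRNA in endoderm called 7, against 52 with DESeq2, 230 without a filter and 1 each with limma-voom, filterByExpr and 1 fit. In foregut it called 33, against 11 with limma-voom, 1 with filterByExpr, 209 with 1 fit and 19 with the block, and their difference 44, against 237, 139, 0, 89 and 16 with DESeq2, no filter, filterByExpr, 1 fit and the block. Without FG_CRISPRi replicate 1 foregut called 527 genes and the difference 805, against 74 and 99 without FG_CRISPRi replicate 2. Without the other libraries foregut called 16 to 22 and the difference 0 to 19. Endoderm against hESC called 7883, and 4493 with 1 fit.

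Over the 10 genes, the median share of nuclei in which a gene was detected was 47.1% at 5000 UMIs, 70.4% at 10000 and 78.0% unthinned. At a clustering resolution of 0.3, 6 of the 10 genes had a ratio over 1.5 between clusters, 7 at 0.5 and 10 at 1.0, where 19 small clusters gave ratios of 2.103 to 4.43. Depth limits MPHOSPH8 in bulk and MORC2 and SETDB1 in nuclei most, and 2 libraries per group limit foregut.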

Other observations

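Some partners of the 10 genes changed between endoderm and foregut, in lists chosen with earlier results known. Of all genes 33.9% passed there, 18.0% lower, and 46.2% of those over 10 CPM passed. The genes named here are mostly those that passed. Others of the same lists did not, among them HELLS (log2 change 0.01), LBR (−0.44) and TRIM24 (0.24). TASOR2 fell again, from 25.1 ± 2.90 CPM in DE_ctl (SD, n = 3) to 12.5 ± 4.81 in FG_ctl (n = 2; log2 change −1.01, SE 0.31, edgeR adjusted p = 0.0321), whereas TASOR stood at 31.8 ± 2.38 CPM. MORC3, a paralog of MORC2 that acts on endogenous retroviruses, fell from 19.3 ± 7.34 to 4.18 ± 1.131 CPM (adjusted p = 0.00254). SMARCAD1, a remodeler that binds KAP1, went from 89.1 ± 1.94 CPM in hESC to 49.9 ± 3.37 and then 18.3 ± 5.54. Of the SUMO pathway, both subunits of the activating enzyme fell from endoderm to foregut, UBA2 by 1.66 on the log2 scale (adjusted p = 0.000922) and SAE1 by 1.01 (adjusted p = 0.0094), while the ligase gene PIAS1 rose (0.87, adjusted p = 0.022). RBBP7 fell to 78.2 ± 3.72 CPM (−1.39, adjusted p = 0.00182).

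Within libraries, MORC2 per kilobase was 1.69 ± 0.353 times PPHLN1 in hESC, 0.853 ± 0.0278 in DE_ctl and 1.17 ± 0.235 in FG_ctl, and MPHOSPH8 was 0.832 ± 0.387, 0.909 ± 0.0345 and 0.923 ± 0.196 times PPHLN1. The first proportion, which carries the fall of MORC2 given above, was lower in all 3 endoderm libraries than in both hESC libraries. The second overlapped in all 3 groups.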
